A study of Mus musculus with 12 samples.

Results

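The level of 10 imprinted growth genes was followed in mouse bone marrow stromal cells: the signalling genes Igf2, Dlk1 and Grb10, the cell cycle inhibitor gene Cdkn1c, the transcription factor genes Plagl1 and Peg3, Peg10 and Mest, and the long non-coding RNA genes H19 and Meg3. They were chosen by symbol, and the values of all transcripts that carry the Entrez number of a gene were summed. Of the 10 genes, 9 were listed among the 21001 genes of the series and 5 (Grb10, Dlk1, Plagl1, Peg10 and Peg3) passed the filter for testing, which asked for at least 1 FPKM in at least 3 libraries. FPKM is a fragment count corrected for the length of the transcript and the size of the library. Meg3 was not listed in any of the 12 tables, so no value is given for it.

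All cells came from C57BL/6 mice with the genotype label "wide type", carried green fluorescent protein (GFP), and were sequenced as 12 libraries of total RNA, with 3 libraries in each of 4 groups. NC were primary cultured cells. HOMING cells were taken from the marrow of mice in which GFP cells had been placed under the skin without tumour cells. BM cells came from the marrow of mice given GFP cells together with Lewis lung carcinoma cells carrying red fluorescent protein, and TUMOR cells came from the site where that mixture was placed. The title of the series concerns stromal cells changed by a cancer and their part in preparing tissue for spreading tumour cells. The labels call the cells bone marrow stem cells and give no gate, purity, age, or number of mice per library, and nothing says that libraries of a group came from separate mice, so the p-values measure the spread between these libraries.

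An imprinted gene is read mainly from the copy inherited from 1 parent, and a methylated control region beside a cluster of such genes marks which copy is silent. Many imprinted genes shape fetal growth: those read from the paternal copy, such as Igf2, Dlk1, Peg3 and Mest, mostly favour it, and those read from the maternal copy, such as H19, Grb10 and Cdkn1c, mostly limit it. Many are turned down after birth, and some stay on in stem and progenitor cells. The tables give the RNA of both parental copies together, so they hold no measure of imprinting itself.

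Each library held 43232145 to 46166519 expected counts, that is, reads assigned to transcripts by estimation. Of 12 stromal markers, Col1a1, Col1a2 and Pdgfra were present in every group, while Thy1, Nt5e and Lepr were under 1 FPKM in all 4 group means. The 11 leukocyte and myeloid markers summed to 0.65 to 1.25 FPKM in NC, 1546 to 2252 in HOMING, 47.46 to 56.12 in BM and 1.18 to 2.53 in TUMOR. The 6 erythroid markers summed to 2104 to 3464 FPKM in HOMING and to 3.5 at most elsewhere. The 6 epithelial markers summed to 70.01 to 115.2 FPKM in TUMOR and to 7.02 at most elsewhere, and this sum was nearly all Krt8 and Krt19, since the group means of Epcam, Cdh1 and Krt18 were 0.0633 FPKM or less in every group. Fewer cells of a type and less RNA per cell cannot be told apart in such bulk samples.

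The members spanned a wide range of levels. In cultured cells the mean was 59.3 FPKM for Grb10 and 26.9 for Dlk1, followed by 5.59 for Peg10, 3.97 for Plagl1 and 0.863 for Cdkn1c. Igf2, Mest, Peg3 and H19 were near the lowest listed value of 0.01, with means of 0.08, 0.07, 0.0167 and 0.01 FPKM. In TUMOR the order changed: Dlk1 led with 30.8 FPKM, Peg10 (9.98) and Grb10 (9.91) were level within their spread, and Plagl1 (1.79), Peg3 (1.56), Mest (1.02) and Cdkn1c (0.77) lay close together.

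**Figure D1:**
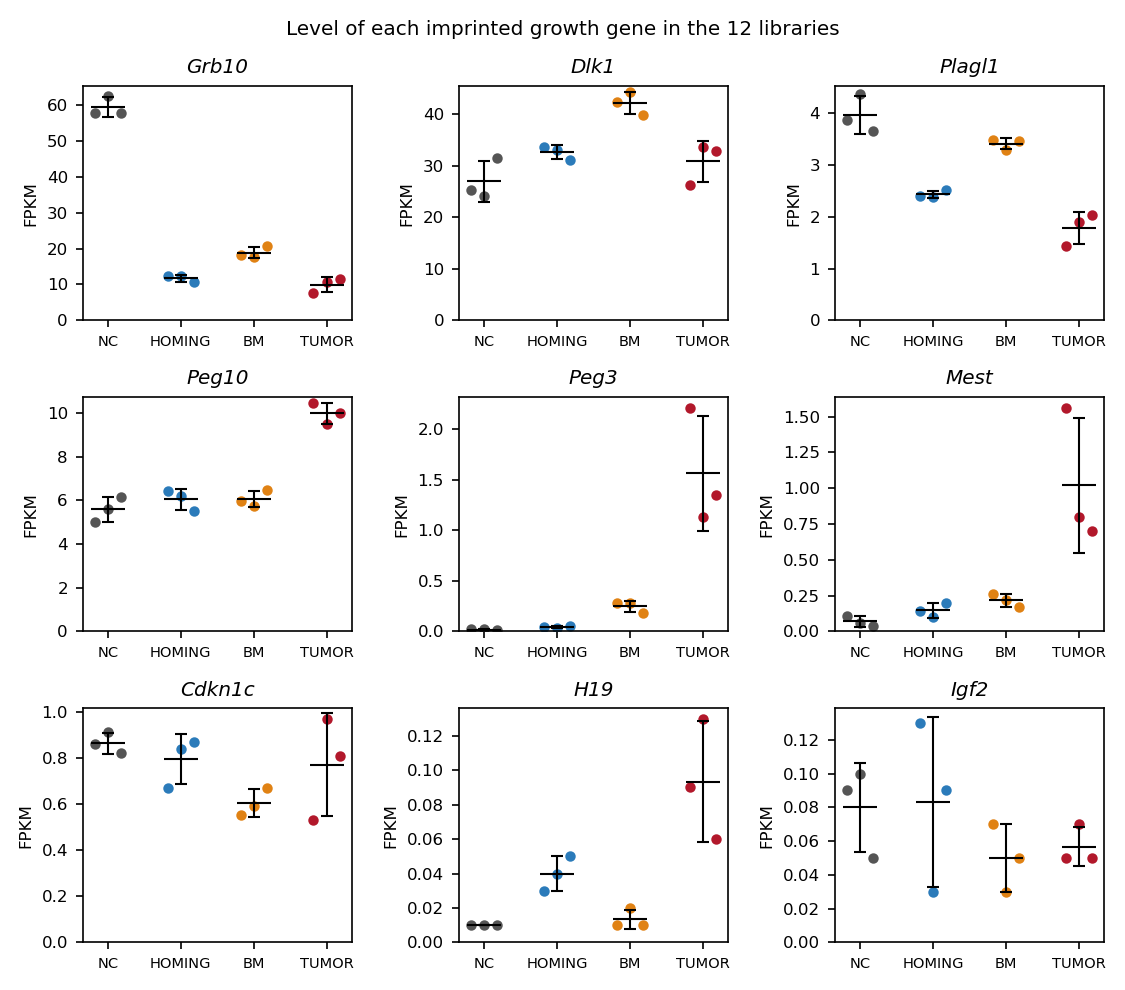
FPKM (vertical axis, linear from 0) of the 9 listed members in the 4 groups (horizontal axis). Each point is 1 library in replicate order, the bar is the group mean and the whiskers are 1 SD of 3 libraries. Grb10 is at 57.7 FPKM or more in the NC libraries and at 20.67 or less in all others, and Peg3 and Mest are highest in TUMOR.

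Grb10, which encodes an adaptor protein that binds the insulin and IGF1 receptors and dampens their signal, fell in all 3 groups recovered from mice. Its level was 57.77, 62.48 and 57.70 FPKM in the NC libraries, 12.22, 12.34 and 10.66 in HOMING, 18.18, 17.67 and 20.67 in BM, and 7.56, 10.60 and 11.56 in TUMOR. Every recovered library was far below every cultured one, every BM library was above every HOMING and TUMOR library, and HOMING and TUMOR overlapped. Tests were two-sided quasi-likelihood F-tests of edgeR in 1 fit of all 12 libraries. Their p-values carry the Benjamini-Hochberg adjustment for 12314 tested genes. Below, called means an adjusted p under 0.05 together with a change of 2-fold or more. Against NC the log2 fold change of Grb10 was -2.45 ± 0.12 (SE, n = 3 and 3) in HOMING (adjusted p = 2.96e-09), -1.74 ± 0.12 in BM (adjusted p = 1.42e-07) and -2.71 ± 0.13 in TUMOR (adjusted p = 1.68e-09). These comparisons share the NC libraries. The summed leukocyte markers differed between these groups, as given above, and their part in the fall was not tested.

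Among the recovered cells, Grb10 was higher in BM than in HOMING by 0.71 ± 0.12 on the log2 scale (adjusted p = 0.000255), which is 1.64-fold and under the limit for a call. It was lower in TUMOR than in BM by a log2 difference of -0.97 ± 0.12 (adjusted p = 1.36e-05), just short of 2-fold. That difference passed the limit without BM replicate 2 (-1.01), without TUMOR replicate 2 (-1.01) and without TUMOR replicate 3 (-1.09). TUMOR and HOMING differed by -0.26 on the log2 scale, with an unadjusted p of 0.0523 and an adjusted p of 0.0863 in the F-test. The 95% interval of -0.49 to -0.02 came from the SE by a normal approximation and is narrower than this test allows.

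Grb10 can start at more than 1 promoter, and in mice the maternal copy is used in most tissues while neurons use the paternal one. The tables list 2 transcripts of it. The 5089-base transcript took 95.5 to 100% of the gene's expected counts in a library, and the 4764-base transcript took the rest, 0.5% in NC and 1.4 to 1.8% in the recovered groups. So the fall of the gene was that of the 5089-base transcript, with group means of 59.0, 11.6, 18.6 and 9.71 FPKM in NC, HOMING, BM and TUMOR. The 2 start regions are shown because they differ sharply in base composition. Each is the 250 bases before a start in the RefSeq table (build GRCm38.p6, minus strand, chr11:12037421-12037670 and chr11:12027972-12028221), in lower case.
Grb10 at the start of the 5089-base transcript: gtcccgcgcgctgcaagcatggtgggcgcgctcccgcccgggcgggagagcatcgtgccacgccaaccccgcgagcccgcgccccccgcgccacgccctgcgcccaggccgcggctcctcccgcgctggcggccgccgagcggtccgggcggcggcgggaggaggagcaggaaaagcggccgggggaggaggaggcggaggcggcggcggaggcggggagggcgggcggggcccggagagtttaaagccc
Grb10 at the start of the 4764-base transcript: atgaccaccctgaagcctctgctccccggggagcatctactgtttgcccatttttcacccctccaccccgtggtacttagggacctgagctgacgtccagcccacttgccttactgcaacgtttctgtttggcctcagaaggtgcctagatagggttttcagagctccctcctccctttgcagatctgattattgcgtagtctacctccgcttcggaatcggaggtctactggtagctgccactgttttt
With the 50 bases after the start included, the first window held 45 CpG dinucleotides, more than 98.1% of the 32851 windows of 300 bases in the table, and 80.0% G or C. The second held 9 CpG and 52.3% G or C, beside medians of 7 CpG and 52.7% over all windows.

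Cdkn1c, which encodes the cyclin-dependent kinase inhibitor p57, stayed below 1 FPKM in every library. Its level was 0.86, 0.91 and 0.82 FPKM in NC, 0.67, 0.84 and 0.87 in HOMING, 0.55, 0.59 and 0.67 in BM, and 0.53, 0.97 and 0.81 in TUMOR. Only BM did not overlap with NC. In a fit without the filter (20956 genes), the log2 difference of BM against NC was -0.60 ± 0.21 (adjusted p = 0.0315), under 2-fold, and no other comparison had an adjusted p under 0.05.

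Igf2, the fetal growth factor that acts through the IGF1 receptor, and H19, the long non-coding RNA that lies beside it and shares its control region, were both close to the lower end of the tables. Igf2 was at 0.09, 0.10 and 0.05 FPKM in NC, 0.13, 0.03 and 0.09 in HOMING, 0.07, 0.03 and 0.05 in BM, and 0.05, 0.07 and 0.05 in TUMOR, with group sums of 26, 29, 19 and 27 expected counts. The 4 groups overlapped. The kit named in the labels does not mark strand, so reads of Igf2 and of transcripts antisense to it cannot be told apart. At this depth the ratio of TUMOR to NC was 1.09, with an exact 95% interval of 0.613 to 1.95 for counting error alone, so a difference within that range could not be seen.

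H19 gave only 3 expected counts in NC, 12 in HOMING, 4 in BM and 28 in TUMOR. The libraries stood at 0.01, 0.01 and 0.01 FPKM in NC, 0.03, 0.04 and 0.05 in HOMING, 0.01, 0.02 and 0.01 in BM, and 0.09, 0.13 and 0.06 in TUMOR. TUMOR was above every other group, and HOMING was above NC and BM. Scaled by library totals, the count of TUMOR was 9.81 times that of NC, with an exact 95% interval of 3.03 to 50.4 for counting error. It was 7.21 times that of BM (2.52 to 28.3) and 2.37 times that of HOMING (1.17 to 5.11). Without the filter H19 was called in TUMOR against NC (adjusted p = 0.000584), TUMOR against BM (adjusted p = 0.00119) and HOMING against NC (adjusted p = 0.0447). Even so its highest library had 0.13 FPKM.

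Dlk1, a membrane protein related to the Notch ligands that keeps preadipocytes and other progenitors from maturing, was among the better expressed members in every group. Its level was 25.32, 24.03 and 31.46 FPKM in NC, 33.60, 33.03 and 31.09 in HOMING, 42.32, 44.22 and 39.81 in BM, and 26.15, 33.49 and 32.74 in TUMOR. All 3 BM libraries lay above all others, and the remaining groups overlapped. Dlk1 was not called in any comparison. BM was higher than NC by 0.56 ± 0.11 on the log2 scale (adjusted p = 0.000541), higher than HOMING by 0.40 ± 0.11 (adjusted p = 0.00649) and higher than TUMOR, where the log2 difference was -0.49 ± 0.11 (adjusted p = 0.00124). These are changes of 1.48-, 1.32- and 1.41-fold. HOMING and NC differed by 0.16 (95% interval -0.05 to 0.37), TUMOR and NC by 0.07 (-0.14 to 0.28), and TUMOR and HOMING by -0.09 (-0.30 to 0.12). The 4339-base transcript of Dlk1 took 95.5 to 97.0% of its counts in every library, with group means between 95.9 and 96.3%. Rian, a non-coding RNA gene of the cluster of Dlk1 and Meg3 that was picked out after its values were seen, had 2, 9, 5 and 9 expected counts in NC, HOMING, BM and TUMOR. Other genes of the cluster, added likewise, had other orders. In the same group order Rtl1 had 0, 0, 0 and 21 counts, Mirg 15, 28, 13 and 46, and Dio3 29, 12, 5 and 12. None of these genes passed the filter.

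Plagl1 encodes a zinc finger transcription factor that arrests the cell cycle and regulates other imprinted genes. Its level was 3.88, 4.38 and 3.65 FPKM in NC, 2.41, 2.39 and 2.51 in HOMING, 3.49, 3.30 and 3.46 in BM, and 1.43, 1.90 and 2.03 in TUMOR. The order was NC, BM, HOMING and TUMOR, and no 2 groups overlapped, although NC and BM were nearly level. Plagl1 fell in TUMOR against NC by 1.32 on the log2 scale (SE 0.11, adjusted p = 2e-07). TUMOR against BM was called exactly at the limit, with a log2 difference of -1.0 ± 0.11 (adjusted p = 3.67e-06). That call ended without BM replicate 1 (-0.99), BM replicate 3 (-1.0) or TUMOR replicate 1 (-0.87). It also ended with library size alone (-0.96), with limma at pseudocounts of 1 (-0.67) and 0.1 (-0.91), and with the top transcript alone (-0.77). HOMING was lower than NC by 1.82-fold, with a log2 difference of -0.87 ± 0.10 (adjusted p = 8.67e-06), BM was lower than NC by 1.24-fold (adjusted p = 0.0165), and neither was called.

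Transcript shares of Plagl1 were less even than those of Grb10 and Dlk1. A model of 4367 bases without a RefSeq accession took 40.3% of the counts in NC, 57.9% in HOMING, 46.2% in BM and 53.9% in TUMOR. The 5279-base RefSeq transcript took 38.2, 32.7, 31.2 and 19.5%. For Peg10, the authors' tables give 2 RefSeq transcripts of 6677 bases with the same value in every library, so their shares (15.2 to 23.1% each by group) only split common reads, and 3 models without an accession took the rest. Summed counts, which the tests used, do not depend on how reads are split among the listed transcripts. Summed FPKM can depend on it where the transcripts differ in length, as those of Plagl1 do.

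**Figure D2:**
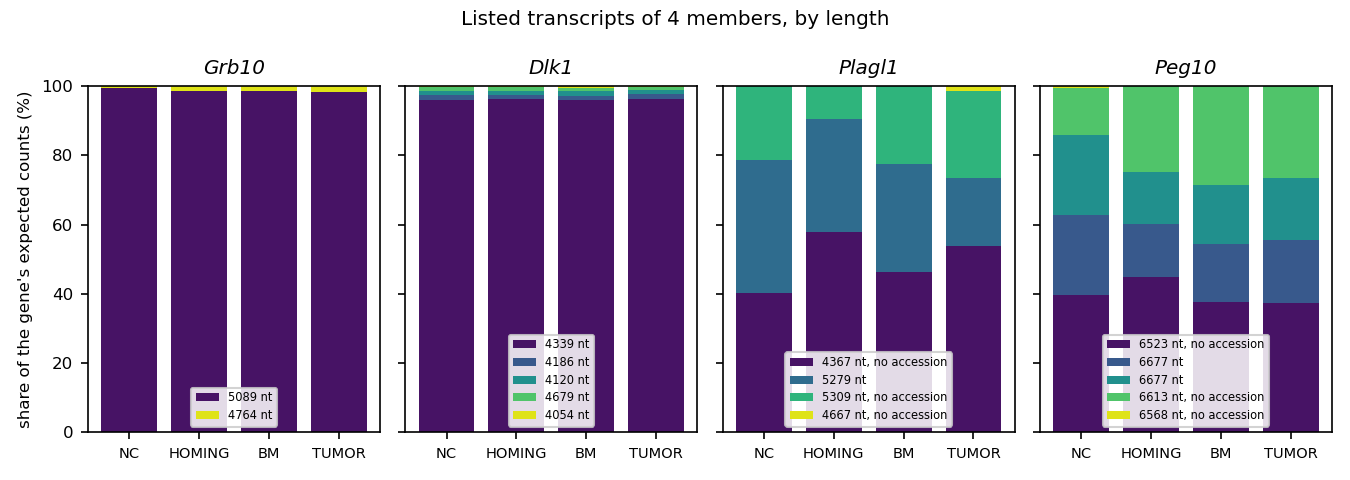
Share of expected counts in percent (vertical axis) that each listed transcript took in the 4 groups (horizontal axis), from counts summed over 3 libraries. Colours stand for transcripts, named by length in nucleotides. Grb10 and Dlk1 rest on 1 transcript each, while Plagl1 and Peg10 are spread over several.

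Peg10, a gene derived from a retrotransposon and needed for the placenta, was higher at the tumour site than in any other group. Its level was 5.01, 5.59 and 6.16 FPKM in NC, 6.44, 6.20 and 5.52 in HOMING, 5.97, 5.73 and 6.48 in BM, and 10.45, 9.49 and 10 in TUMOR. The TUMOR libraries stood apart and the other 3 groups overlapped. The log2 difference of TUMOR was 0.71 ± 0.09 against NC (adjusted p = 7.7e-06), 0.68 ± 0.09 against BM (adjusted p = 1.62e-05) and 0.71 ± 0.09 against HOMING (adjusted p = 1.73e-05), each 1.6- to 1.64-fold and so not called. Between NC, HOMING and BM the differences were at most 0.03, with 95% intervals inside -0.17 to 0.20. Sgce, encoding epsilon-sarcoglycan, is its divergent neighbour and is also paternally expressed. Its order was another one, with 13.55 to 17.12 FPKM in NC, 7 to 7.29 in HOMING, 7.73 to 8.10 in BM and 11.41 to 12.15 in TUMOR.

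Peg3 encodes a large zinc finger protein and is a textbook paternally expressed gene. Its level was 0.02, 0.02 and 0.01 FPKM in NC, 0.04, 0.03 and 0.05 in HOMING, 0.28, 0.28 and 0.18 in BM, and 2.21, 1.13 and 1.35 in TUMOR. The groups did not overlap, and each step from NC through HOMING and BM to TUMOR was upward, from 18 through 43 and 260 to 1625 expected counts in a group. Peg3 passed the filter only through its 3 TUMOR libraries, so it had to differ between TUMOR and the rest, and those differences are given as sizes. The log2 difference of TUMOR was 6.42 ± 0.38 against NC, 5.24 ± 0.34 against HOMING and 2.65 ± 0.27 against BM. BM rose against NC by 3.77 ± 0.42 (adjusted p = 6.39e-06) and against HOMING by 2.59 ± 0.36 (adjusted p = 5.04e-05). HOMING against NC was 1.18 ± 0.54 (adjusted p = 0.0689) and was not called. Its 2 listed transcripts, a model of 9665 bases without an accession and a RefSeq transcript of 6624 bases, took 52.2 to 55.1% and 44.9 to 47.8% of the counts by group.

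Mest, an alpha/beta hydrolase-like protein of growing mesoderm, had a similar order at a low level. It was at 0.11, 0.06 and 0.04 FPKM in NC, 0.14, 0.10 and 0.20 in HOMING, 0.26, 0.22 and 0.17 in BM, and 1.56, 0.80 and 0.70 in TUMOR. The TUMOR libraries were above all others, and HOMING overlapped with both NC and BM. Only 1 library reached 1 FPKM, so Mest failed the filter, and the values that follow come from the fit without it. The log2 difference of TUMOR was 3.81 ± 0.40 against NC (adjusted p = 7.63e-07), 2.75 ± 0.36 against HOMING (adjusted p = 1.47e-05) and 2.14 ± 0.34 against BM (adjusted p = 7.09e-05). BM rose against NC by 1.67 ± 0.46 (adjusted p = 0.00696), HOMING against NC was 1.06 (adjusted p = 0.0835) and BM against HOMING was 0.61 (adjusted p = 0.263). The 2579-base transcript of Mest took 97.0% of its counts in TUMOR.

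Since Peg3 and Mest went from near silence to a measurable level, their start regions are shown, again as the 250 bases before the start from RefSeq (GRCm38.p6). The Peg3 window is chr7:6730370-6730669 on the minus strand, of which chr7:6730420-6730669 is printed, and the Mest window is chr6:30737800-30738099 on the plus strand, at the start of its 2579-base transcript, of which chr6:30737800-30738049 is printed. Capitals mark GGGGCCCC, a core bound by PLAGL1, and TGCCGC or its reverse complement GCGGCA, the core bound by ZFP57 when methylated.
Peg3: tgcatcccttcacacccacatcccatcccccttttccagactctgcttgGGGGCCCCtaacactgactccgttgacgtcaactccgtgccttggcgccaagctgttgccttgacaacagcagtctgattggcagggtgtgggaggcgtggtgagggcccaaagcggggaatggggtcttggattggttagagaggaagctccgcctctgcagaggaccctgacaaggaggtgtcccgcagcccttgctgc
Mest: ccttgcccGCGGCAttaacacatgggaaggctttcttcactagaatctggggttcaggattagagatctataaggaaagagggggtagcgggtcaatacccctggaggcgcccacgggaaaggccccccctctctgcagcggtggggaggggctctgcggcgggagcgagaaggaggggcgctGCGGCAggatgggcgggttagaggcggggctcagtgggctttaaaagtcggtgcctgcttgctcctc
The Peg3 window held GGGGCCCC once, starting 201 bases before the start, and 13 CpG. The Mest window held GCGGCA 242 and 67 bases before the start, and 17 CpG. Searched on both strands, GGGGCCCC occurs in 1.08% of all windows of this length and TGCCGC in 11.61%. In the Grb10 window of the 5089-base transcript, TGCCGC was matched once on the other strand, 25 bases into the transcript, and so outside the printed part. The same core was matched in 1 window each of Igf2 (31 bases after the start), Plagl1 (90 bases before) and Meg3 (190 bases before). The table has 14 windows for 7 of the 10 members, and the YY1 core GCCATNTT, which occurs in 6.05% of all windows, was matched in none of them. A TATA box, written TATAAA, occurs in 13.62% of all windows and in 1 window of Meg3. These matches describe letters and show no binding.

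The TUMOR libraries differed among themselves in the genes that were high there. Replicate 1 had 1.78 times the mean of the other 2 libraries for Peg3 and 2.08 times for Mest, and among the genes described further on 1.90 times for Zrsr1 and 1.46 times for Dnmt3l. It had 1.87 times for Krt8, a simple epithelium keratin, which was at 93.78, 48.13 and 51.94 FPKM in TUMOR, 5.96 to 6.47 in BM, 1.15 to 1.64 in HOMING and 0.03 to 0.15 in NC. In the same library Grb10 was at 0.682 times the mean of the others, Plagl1 at 0.728 times, and Dlk1 at 0.790 times, while Peg10 (1.07 times), H19 (0.947 times) and Krt19 (0.962 times) were level. Mean levels in BM were 15.8% of those in TUMOR for Peg3, 21.2% for Mest and 9.73% for Krt8. Lewis lung carcinoma is a mouse tumour, so its reads and those of the stromal cells cannot be told apart by species, and the part of other cells in the values of Peg3, Mest, H19, Zrsr1 and Dnmt3l was not tested. Without TUMOR replicate 1, the log2 difference of Peg3 was 6.06 against NC, 4.88 against HOMING and 2.29 against BM, and the count ratio of Mest to NC was 11.3 (95% interval 7.25 to 18.2) in place of 15.3 (10 to 24.4).

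**Figure D3:**
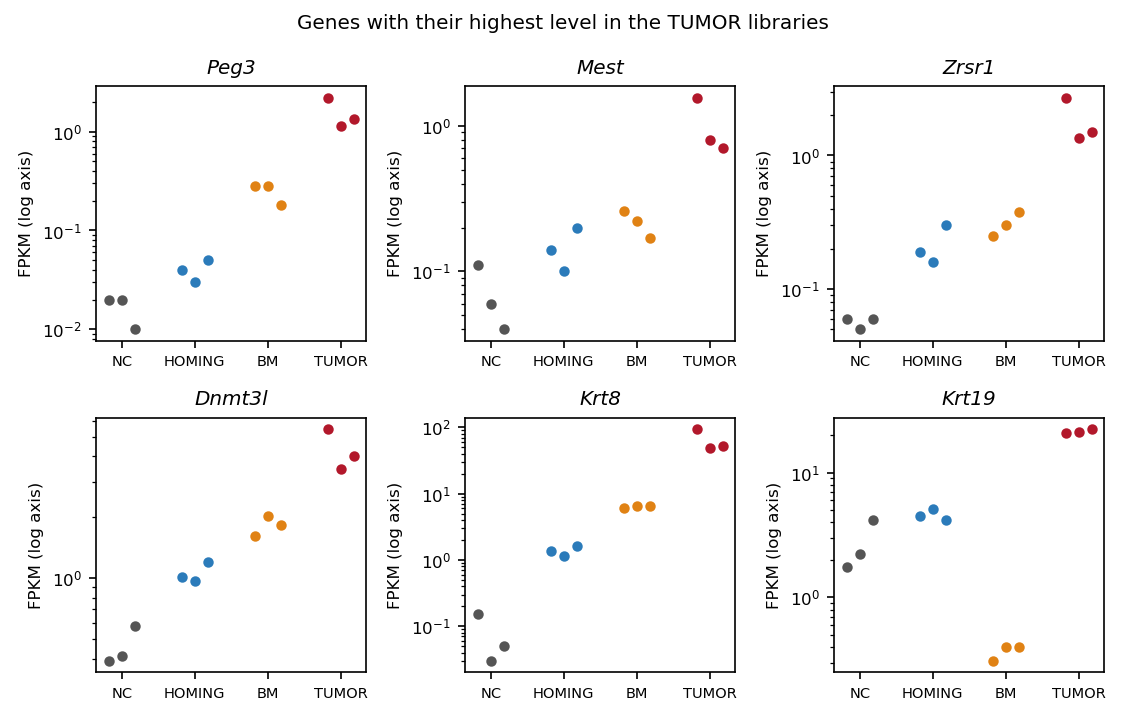
FPKM (vertical axis, logarithmic) of Peg3, Mest, Zrsr1, Dnmt3l, Krt8 and Krt19 in the 4 groups (horizontal axis), with 1 point per library in replicate order. Replicate 1 of TUMOR is the highest library for the first 5 genes and not for Krt19.

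Counted over the 5 tested members, 1 was called in HOMING against NC (Grb10, lower), where 14.3% of all tested genes were called. In BM against NC 2 were called (Grb10 lower, Peg3 higher), beside 11.5% of all genes, and in TUMOR against NC 3 were called (Grb10 and Plagl1 lower, Peg3 higher), beside 16.4%. Peg3 alone was called in BM against HOMING (10.4% of all genes) and in TUMOR against HOMING (10.8%), and Peg3 and Plagl1 were called in TUMOR against BM (14.2%). In the fit without the filter, 5 of the 9 listed members were called in TUMOR against NC (16.3% of all genes), 5 in TUMOR against BM (15.1%), 2 in TUMOR against HOMING (12.9%), 3 in BM against NC (12.1%) and 2 in HOMING against NC (15.8%). With so few members these counts give no comparison with other genes, and Peg3 had to differ. The members moved in both directions: of the paternally expressed genes, Peg3 and Mest rose while Plagl1 fell at the tumour site, and of the maternally expressed ones Grb10 fell while H19 was higher there at a trace level.

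**Figure D4:**
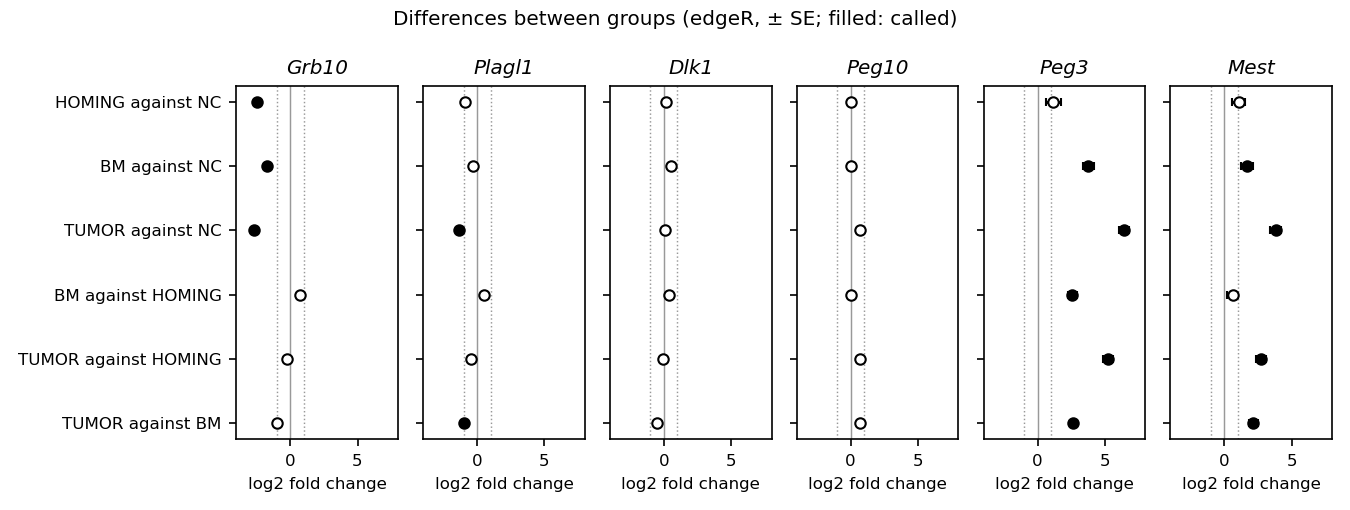
Log2 fold change (horizontal axis) of 6 members in the 6 comparisons (vertical axis), first group over second, with 1 SE. Filled points were called, dotted lines mark 2-fold, and Mest comes from the fit without a filter on low values. Grb10 is lower in each recovered group than in NC, and Peg3 has the widest range, up to 6.42.

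Across the 12 libraries, Grb10 and Plagl1 varied alike (Pearson r = 0.87 of log2(FPKM + 1)), as did Peg10 and Peg3 (r = 0.94), and Plagl1 and Peg10 varied in opposite directions (r = -0.83). Dlk1 followed none of the other tested members, with r between -0.33 and 0.05. These values describe 12 points that share 4 groups. Peg10 and Peg3 were both highest in TUMOR, and Peg3 had to be by the filter. The tested genes most like Grb10 were Tmem126a (r = 0.996, from 110.6 FPKM in NC to 38.0 in TUMOR), Fbxw11 (0.989) and Ghitm (0.989). Those most like Plagl1 were Vgll3 (0.994), Elovl4 (0.989) and Ptpn11 (0.986). Among those most like Peg3 were Slc25a21 (0.995) and Prss35 (0.995), both highest in TUMOR, with means of 1.27 and 1.63 FPKM. Their group means elsewhere were 0.403 FPKM or less. Like Peg3, both passed the filter only through TUMOR, so they had to be highest there. Peg10 was most like Mgst3 (0.983), Rab36 (0.982) and Ckb (0.973), and Dlk1 was most like Cyld (0.957), Trim24 (0.947) and Ttll7 (0.943).

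Other imprinted genes did not share 1 direction. Of 44 further imprinted genes 42 were listed and 19 were tested, and their median log2 difference lay between -0.09 and 0.08 in the 6 comparisons, beside -0.005 to 0.016 for all genes. Called genes of this list numbered 1 higher and 1 lower in HOMING against NC, 3 and 1 in BM against NC, and 2 and 1 in TUMOR against NC. Of all tested genes 14.3, 11.5 and 16.4% were called there, and so few genes give no comparison with the rest. Zrsr1 was among the higher calls each time in edgeR. With limma at a pseudocount of 1 its call ended in HOMING (0.20, adjusted p = 0.21) and in BM (0.31, adjusted p = 0.0668) against NC. The HOMING call also ended at a pseudocount of 0.1 (0.99). Zrsr1, a splicing factor-like gene inside an intron of another gene, showed the same order as Peg3: it was at 0.06, 0.05 and 0.06 FPKM in NC, 0.19, 0.16 and 0.30 in HOMING, 0.25, 0.30 and 0.38 in BM, and 2.71, 1.36 and 1.49 in TUMOR. TUMOR was above all other libraries, and HOMING and BM overlapped. Zrsr1 too passed the filter only through TUMOR, so it had to differ there. Its log2 difference of TUMOR against NC, given as a size, was 4.88 ± 0.36. Snrpn, of the cluster deleted in Prader-Willi syndrome, had 2.93 to 3.06 FPKM in NC, 4.84 to 5.13 in HOMING, 6.36 to 7.10 in BM and 7.84 to 9.24 in TUMOR, and rose in BM and TUMOR against NC by 1.11 ± 0.08 (adjusted p = 2.7e-07) and 1.42 ± 0.08 (adjusted p = 1.22e-08). The call of Snrpn in BM ended with limma at a pseudocount of 1 (0.97).

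Dcn, the matrix proteoglycan decorin, whose imprinting is known from the placenta, had its highest level in BM, at 593.68 to 625.84 FPKM, beside 78.67 to 118.9 in NC, 192.06 to 224.55 in HOMING and 52.44 to 73.17 in TUMOR. It rose in BM against NC by 2.57 ± 0.14 (adjusted p = 2.69e-08) and against HOMING by 1.58 ± 0.14 (adjusted p = 9.32e-07). In TUMOR against BM it fell by 3.24 on the log2 scale (SE 0.15, adjusted p = 2.29e-09). Sgce fell against NC in HOMING by 1.24 (SE 0.07, adjusted p = 1.43e-08) and in BM by 1.06 (SE 0.07, adjusted p = 1.46e-07). The call of Sgce in BM ended with limma at pseudocounts of 1 (-0.89) and 0.1 (-0.97) and with library size alone (-0.98). Igf2r, the receptor that removes IGF2 from the cell surface, had 15.35 to 17.90 FPKM in TUMOR and 28.51 to 32.47 in NC, a log2 difference of -1.0 ± 0.07 (adjusted p = 3.33e-08) at the limit for a call. The call ended without NC replicate 1 (-0.98), NC replicate 2 (-0.97) or TUMOR replicate 1 (-0.94).

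**Figure D5:**
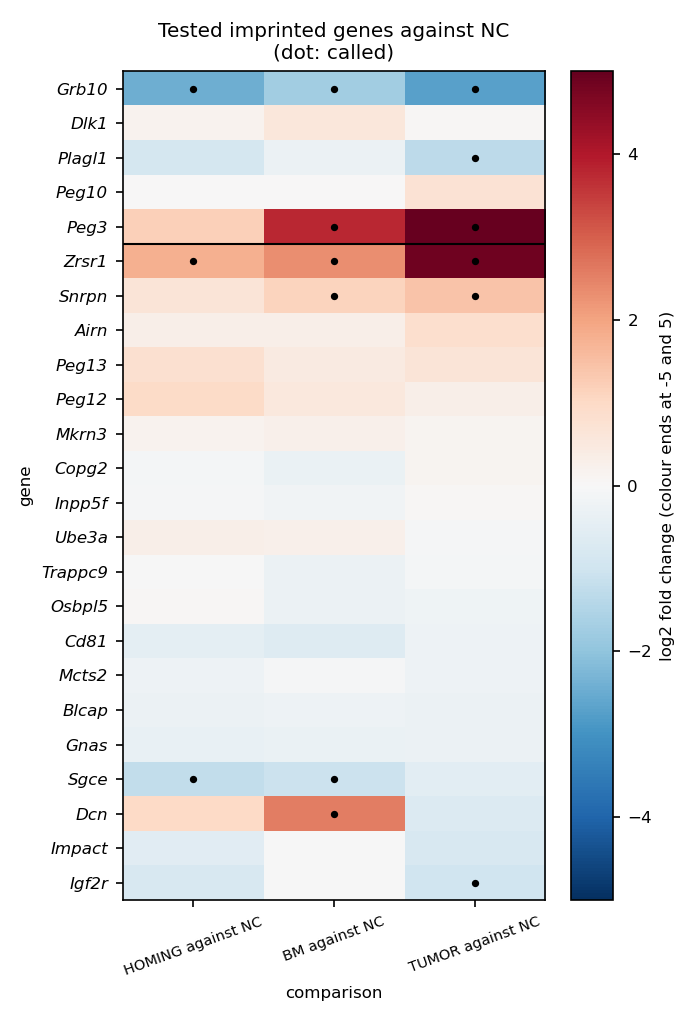
Log2 fold change against NC (colour, ending at -5 and 5) of the 5 tested members, above the line, and of 19 other tested imprinted genes (vertical axis) in HOMING, BM and TUMOR (horizontal axis). A dot marks a call. Peg3 and Zrsr1 have the deepest red in TUMOR, Grb10 is blue in all 3 columns, and most other genes are pale.

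In the IGF and insulin pathway, in which Igf2, Grb10 and Igf2r act, more genes fell than rose in recovered against cultured cells. Of 16 tested genes, edgeR called 0 higher and 3 lower in HOMING against NC (median log2 difference -0.68), 1 higher and 3 lower in BM against NC (median -0.51), and 0 higher and 5 lower in TUMOR against NC (median -0.60), beside all-gene medians of 0.01, 0.016 and 0.009. The shares called among all genes were 14.3, 11.5 and 16.4%, and so few genes give no comparison with the rest. DESeq2 gave the same counts. With library size alone and with both limma fits, 3 of the 5 lower calls in TUMOR against NC (Foxo1, Igf2r and Igfbp3) ended, and 1 of the 3 in HOMING against NC (Foxo1). At an unadjusted p under 0.05 and any size 1, 3 and 2 were higher and 14, 11 and 11 lower. Passing such a limit was common. Even at an adjusted p under 0.05 and any size, 8617, 8198 and 9068 of all 12314 tested genes passed in edgeR. Of those genes 50.6, 51.7 and 50.5% were higher. Pappa, a protease that frees IGF from its binding proteins, fell in all 3, by 2.48 (SE 0.12, adjusted p = 2.07e-09), 2.30 (SE 0.12, adjusted p = 1.51e-08) and 2.05 (SE 0.12, adjusted p = 9.14e-09). Irs2, the substrate that passes on the receptor signal, fell in HOMING (-1.35, adjusted p = 3.62e-08) and TUMOR (-1.41, adjusted p = 2.26e-08), as did Foxo1, a transcription factor restrained by the pathway (-1.10, adjusted p = 2.11e-07, and -1.12, adjusted p = 1.6e-07). The Foxo1 differences were -0.86 and -0.88 with limma at a pseudocount of 1, -0.97 and -0.99 at 0.1, and -0.99 and -1.0 with library size alone, all short of 2-fold. The binding protein gene Igfbp3 had its highest level in BM, with means of 48.3 FPKM there, 14.8 in NC, 10.9 in HOMING and 7.63 in TUMOR, and rose in BM against HOMING by 2.17 ± 0.11 (adjusted p = 1.28e-08). The receptor genes themselves were not among the calls, other than Igf2r.

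Of 13 tested genes that keep imprints or set DNA methylation, 1 to 3 rose in every comparison except BM against HOMING, and edgeR and DESeq2 called 0 lower in all 6 comparisons and 0 higher in BM against HOMING. Against NC the counts were 1 in HOMING, 1 in BM and 2 in TUMOR, near or under the shares of all genes called there (14.3, 11.5 and 16.4%), and the list's median was 0.12, 0.14 and 0.31. In TUMOR against BM 3 rose and in TUMOR against HOMING 2 rose, where 14.2 and 10.8% of all genes were called. So few genes give no comparison with the rest. At an unadjusted p under 0.05 and any size, 2 to 4 were lower in a comparison, and 3 were higher in BM against HOMING. Of all 12314 tested genes, 3344 to 4491 were lower in a comparison at an adjusted p under 0.05 and any size in edgeR, and 3608 were higher in BM against HOMING. Dnmt3l, a cofactor of the methyltransferases that is best known from germ cells, was at 0.39, 0.41 and 0.58 FPKM in NC, 1.01, 0.97 and 1.20 in HOMING, 1.62, 2.03 and 1.83 in BM, and 5.46, 3.47 and 4.02 in TUMOR. The 4 groups did not overlap, in the order seen for Peg3. It rose against NC in HOMING (1.17 ± 0.23, adjusted p = 0.000648), BM (1.87 ± 0.23, adjusted p = 1.28e-05) and TUMOR (3.11 ± 0.22, adjusted p = 5.65e-08). With the top transcript in edgeR the HOMING difference was 0.72 (adjusted p = 0.166). With limma at a pseudocount of 1 it was 0.50 in HOMING and 0.95 in BM, both short of 2-fold. Tet2, which oxidises methylated cytosine, rose in TUMOR against NC by 1.42 ± 0.06 (adjusted p = 9.52e-10). Dnmt3a, a methyltransferase that sets new marks, rose in TUMOR against BM by 1.37 ± 0.13 (adjusted p = 1.85e-06) and against HOMING by 1.18 ± 0.13 (adjusted p = 1.04e-05), and the second call ended without TUMOR replicate 1 (0.99). No methylation was measured here.

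Beside Cdkn1c, all 7 listed genes named as cyclin-dependent kinase inhibitors (by a Cdkn symbol, Cdkn3 included) were tested. Of these, 2 rose in HOMING, 1 in BM and 3 in TUMOR against NC, while 1 fell in BM, where 14.3, 11.5 and 16.4% of all genes were called. The list's median log2 difference was -0.07, -0.27 and 0.70, beside 0.01, 0.016 and 0.009 for all genes, and so few genes give no comparison with the rest. Cdkn2d (p19) rose in each, from a mean of 3.81 FPKM in NC to 17.2, 10.9 and 25.7 in HOMING, BM and TUMOR, by 2.06 ± 0.08 (adjusted p = 4.58e-10), 1.44 ± 0.08 (adjusted p = 3.77e-08) and 2.63 ± 0.08 (adjusted p = 1.01e-10). Cdkn1a (p21), a target of p53, rose in HOMING by 1.17 ± 0.20 (adjusted p = 0.000157) and in TUMOR by 2.11 ± 0.20 (adjusted p = 8.28e-07). Cdkn2c rose in TUMOR by 1.08 ± 0.10 (adjusted p = 7.34e-07), a call that ended without NC replicate 1 (0.97). Cdkn2a fell in BM by 1.01 (SE 0.10, adjusted p = 2.77e-06), a call that ended without NC replicate 1 (-0.99), NC replicate 3 (-0.99) or BM replicate 1 (-0.96). It also ended with limma at pseudocounts of 1 (-0.93) and 0.1 (-0.94) and with library size alone (-0.93). The same held with genes of at least 1 FPKM in NC (-0.97) and with the top transcript (-0.95).

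Of the Notch ligands, receptors and targets listed beside Dlk1, 6 of 12 were tested, and at most 1 was called higher and 2 lower in any comparison, too few to set beside the 10.4 to 16.4% of all genes called. Notch1, a receptor also used by blood cells, went from a mean of 0.18 FPKM in NC to 3.76 in HOMING, 0.313 in BM and 0.453 in TUMOR, with a log2 difference of 4.26 ± 0.22 (SE) between HOMING and NC. It passed the filter only through the 3 HOMING libraries, so it had to differ there, and the difference is given as a size. Leukocyte markers were high in the same libraries, and their part in it was not tested. Dlk2, the closest relative of Dlk1, was lower in BM than in HOMING by a log2 difference of -1.14 ± 0.22 (adjusted p = 0.000825), while Dlk1 was higher there. The Dlk2 difference of BM against NC was -1.04 ± 0.22 (adjusted p = 0.00125) and shrank to -0.70, under the limit, without NC replicate 3. It was also short of the limit with limma at pseudocounts of 1 (-0.80) and 0.1 (-0.90) and with library size alone (-0.95). With genes of at least 1 FPKM in NC (-1.0) the call ended too.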

How the data were processed

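Total RNA of sorted, frozen cells was made into libraries with an Illumina TruSeq RNA kit, per the labels' protocols. Bowtie 0.12.2 and build mm8 are named in the submitters' processing notes, and the counting program is not stated in any source used here. The authors deposited 2 columns per transcript: expected counts, left unnormalized, and FPKM, scaled for length and library and rounded to 2 decimals. Transcripts not listed in a table were set to 0. Of 19679 Entrez numbers, 19629 matched a symbol.

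Both units were summed per Entrez number. Groups and replicate numbers came from the sample titles. EdgeR 4.0.16, run in R 4.3.3, was used on rounded counts of the 12314 genes that reached 1 FPKM in 3 libraries or more, with TMM factors of 0.929 to 1.039 and 1 fit for the 6 comparisons. The procedure was tested on simulated data. The SE of a log2 difference was derived from its F statistic. The 95% intervals of log2 differences came from this SE by a normal approximation, so they are somewhat narrower than the F-test allows. Counts of members with few reads were compared by exact 95% intervals of their ratio, which cover counting error only. Alternatives were DESeq2 1.42.0, limma 3.58.1 on log2(FPKM + 1) and log2(FPKM + 0.1), other scalings, filters and gene summaries, the compared groups alone, no minimum fold, a replicate block, and leaving out each library.

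The members and gene lists were chosen with earlier results of these data known. All members were named, and of each list up to 4 called genes with the smallest adjusted p. The like genes are the 3 with the highest Pearson r per member, leaving out predicted genes, receptors of smell and immune receptor segments, and 1 of them is not reported here. Promoter sequences are from RefSeq (GRCm38.p6), and 7 of 10 members were matched. Tables and plots were made with Python 3.11.15, pandas 2.3.3 and matplotlib 3.10.9.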

Additional observations from a re-analysis of the deposited data

How the results depend on the processing

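Over 504 alternative values of the 30 log2 differences of the 5 tested members, 455 kept direction and side of the threshold, 20 gained a call, 11 lost one and 18 changed sign. The alternative with no minimum fold repeats the values of the main fit, so it could add calls but could not change a size or sign. The sign changes were in small uncalled differences. For Peg10 in HOMING against NC the value became 0.0049 with DESeq2 and with median-ratio scaling, 0.10 and 0.12 with limma at pseudocounts of 1 and 0.1, 0.11 with library size alone, 0.05 with genes of at least 1 FPKM in NC, 0.19 with the top transcript, 0.0017 with the replicate block, and -0.08 to 0.09 when a library was left out. With the top transcript Peg10 became -0.22 in BM against HOMING and -0.03 in BM against NC, and leaving out a library gave -0.03 to 0.09 and -0.05 to 0.12. For Dlk1 leaving out a library gave -0.01 to 0.21 in TUMOR against NC and -0.15 to 0.0035 in TUMOR against HOMING.

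The number of called members changed as follows. In BM against HOMING (1 called) it was 0 with limma at a pseudocount of 1 and with genes of at least 1 FPKM in NC, which leaves out Peg3, and 4 with no minimum fold. In HOMING against NC (1) it was 2 with DESeq2, library size alone, no filter, the 2 groups alone, no minimum fold and the replicate block. In BM against NC (2) it was 1 with limma at a pseudocount of 1 and with genes expressed in NC, 3 without the filter and 4 with no minimum fold. In TUMOR against NC (3) it was 2 with limma at a pseudocount of 1, with genes expressed in NC and with the top transcript, 4 with no minimum fold and 5 without the filter. In TUMOR against BM (2) it was 1 with both limma fits, library size alone, genes expressed in NC and the top transcript, 5 without the filter and with no minimum fold, and 1 to 3 when a library was left out. In TUMOR against HOMING (1) it was 2 without the filter, 0 with genes expressed in NC and 3 with no minimum fold. Peg3 was called in HOMING against NC by DESeq2 (adjusted p = 0.0211), with library size alone (0.0453), in the 2 groups alone (0.0301) and with the replicate block (0.026). With limma at a pseudocount of 1, Peg3 lost its call in BM against HOMING (0.26, adjusted p = 0.0858) and in BM against NC (0.29, adjusted p = 0.0513), since this scale shrinks low values. Plagl1 in TUMOR against NC fell short of 2-fold with that fit (-0.84) and with its top transcript (-0.88).

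Of 986 alternative values for 59 calls of listed genes, 64 lost the call and 0 changed sign. Only genes called in the main fit were entered, and no minimum fold repeats its values, so sign changes were unlikely from the start. Same-numbered libraries deviated together with correlations of -0.12 to 0.224 over 18 pairs, so the numbers were not taken to pair libraries, and the replicate block changed only the count above. Over all genes, calls rose without the filter from 1280 to 2581 in BM against HOMING, 1416 to 2537 in BM against NC, 1765 to 3302 in HOMING against NC, 1752 to 3162 in TUMOR against BM, 1329 to 2702 in TUMOR against HOMING and 2019 to 3420 in TUMOR against NC. With no minimum fold they were 7158, 8198, 8617, 8576, 6776 and 9068. With genes expressed in NC they were 542, 755, 999, 1026 and 542 in the first 5, and limma at a pseudocount of 1 gave 626, 930 and 1301 in BM against NC, TUMOR against BM and TUMOR against NC. Library size alone moved the median of all genes to 0.1222 in HOMING against NC and 0.1331 in TUMOR against NC, where the share of higher calls was 69.7% in place of 59.4%. Depth limits H19, Igf2, Mest and Cdkn1c.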
